A study of Mus musculus with 34 samples.

Results

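The transcripts of 10 genes that build the contractile apparatus of the heart ventricle, namely Myh6, Myh7, Mybpc3, Myl2, Myl3, Ttn, Actc1, Tnnt1, Tnnt2 and Tnni3, were measured in mouse heart under 3 diets. They were taken as the rows that carry these 10 symbols in the deposited heart tables, 10 of 13238 genes, and all 10 were among the 13230 genes tested. The labels describe RNA sequencing of heart and adipose tissue from C57BL/6J mice, and columns of 14 heart and 13 adipose libraries were used. HFCD+FMD mice (4 heart libraries, aged 20 to 21 months) ate a high-fat, high-calorie diet with 60% of its calories from fat and, every 4 weeks, a fasting mimicking diet (FMD) for 5 days. They went through 11 cycles, and from cycle 6 each FMD was followed by 2 days of the control diet. HFCD mice (5 heart libraries, aged 20 to 22 months) ate the same high-fat diet without FMD. Control mice (5 heart libraries, aged 20 to 21 months) ate a diet with 10% of its calories from fat. Tissue was taken 4 days after the end of the last FMD cycle. Apart from a design text that counts mice, nothing in the labels ties a library to an animal, and each p-value below reflects only how much the libraries vary.

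The sarcomere, the contractile unit of heart muscle, slides thick filaments of myosin along thin filaments of actin. In the thick filament the heavy chains Myh6 (alpha, fast) and Myh7 (beta, slow) are the motors, the light chains Myl2 and Myl3 steady the myosin neck, Mybpc3 tunes the motors and the giant protein Ttn acts as a spring. In the thin filament the cardiac actin Actc1 carries the troponin complex, in which Tnnt2 is the cardiac and Tnnt1 the slow skeletal form of troponin T and Tnni3 is the cardiac inhibitory subunit. In the adult mouse ventricle Myh6 is the main heavy chain, while Myh7 belongs to the fetal heart and is known to return under pressure load.

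Counts of the heavy chains rest on the bases in which they differ. Myh6 (ENSMUSG00000040752, chromosome 14, 54941921 to 54966927, minus strand, GRCm38) and Myh7 (ENSMUSG00000053093, chromosome 14, 54970684 to 54994626, minus strand) are neighbours, their coding sequences are 91.5% identical, and their longest identical run is 245 bases. Of the 50-base windows of the Myh6 coding sequence, 23.8% also occur in a transcript of another gene, mainly Myh7. Reads that lie within such windows cannot be split between the pair by their bases, and their share of all reads was not tested. Their most divergent aligned 60 coding bases, from the GENCODE M21 transcripts, are shown because reads from such a stretch can be assigned, with the 27 bases that differ in capitals.
Myh6: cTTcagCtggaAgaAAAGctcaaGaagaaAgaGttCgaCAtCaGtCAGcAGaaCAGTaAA
Myh7: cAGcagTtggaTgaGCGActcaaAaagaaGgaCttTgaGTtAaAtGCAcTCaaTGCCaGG
These are coding bases 3226 to 3285 of Myh6 and 3220 to 3279 of Myh7. The antisense gene Mhrt overlaps Myh7, and since the strand setting of the counting is not given in the sources used here, reads of Mhrt and Myh7 cannot be told apart. The other 8 genes shared 0% of such windows with another gene.

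The 200 bases before the RefSeq start (GRCm38.p6, minus strand for Actc1, Tnnt1 and Myh6, plus strand for Myl2 and Myl3) are shown for the 5 genes whose libraries lay apart between at least 1 pair of diets, with motif matches in capitals.
Actc1 (chr2:114052876-114053075): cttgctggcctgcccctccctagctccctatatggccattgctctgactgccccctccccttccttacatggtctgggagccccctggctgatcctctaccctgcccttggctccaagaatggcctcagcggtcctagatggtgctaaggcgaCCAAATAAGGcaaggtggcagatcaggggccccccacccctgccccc
Tnnt1 (chr7:4515976-4516175): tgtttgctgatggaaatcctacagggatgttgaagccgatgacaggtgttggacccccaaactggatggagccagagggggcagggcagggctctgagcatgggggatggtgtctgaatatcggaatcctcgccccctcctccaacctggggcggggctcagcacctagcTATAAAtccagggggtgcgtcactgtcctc
Myl3 (chr9:110763478-110763677): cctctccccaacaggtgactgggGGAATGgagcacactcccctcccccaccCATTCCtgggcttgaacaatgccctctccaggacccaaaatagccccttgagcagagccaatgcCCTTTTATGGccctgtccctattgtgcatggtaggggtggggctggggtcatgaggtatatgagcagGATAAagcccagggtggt
Myh6 (chr14:54966608-54966807): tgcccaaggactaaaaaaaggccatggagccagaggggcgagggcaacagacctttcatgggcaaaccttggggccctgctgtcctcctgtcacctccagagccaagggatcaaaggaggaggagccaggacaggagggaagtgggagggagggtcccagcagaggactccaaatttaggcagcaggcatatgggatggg
Myl2, first start (chr5:122092524-122092723): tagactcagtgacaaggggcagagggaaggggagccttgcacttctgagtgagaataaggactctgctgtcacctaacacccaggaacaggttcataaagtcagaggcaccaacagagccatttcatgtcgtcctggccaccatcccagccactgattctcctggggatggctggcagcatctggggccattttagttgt
Myl2, other start (chr5:122092989-122093188): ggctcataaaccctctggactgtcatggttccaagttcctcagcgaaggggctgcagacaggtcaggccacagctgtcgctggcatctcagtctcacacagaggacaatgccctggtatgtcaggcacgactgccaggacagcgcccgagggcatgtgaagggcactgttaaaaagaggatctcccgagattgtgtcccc
The capitals mark a CArG box in Actc1, a TATA box (TATAAA) in Tnnt1, and in Myl3 an M-CAT motif (CATTCC) on each strand, a CArG box and a GATA motif (GATAA). The windows of Myh6 and Myl2 held none of these motifs and no MEF2 site, which was searched as well. Both Myl2 windows lie upstream of the start that GENCODE M21 gives for this gene (chr5:122100951, plus strand) and do not adjoin it. The bases just before that start were not searched. Both strands were searched, and these matches do not overlap each other. Of 20150 promoter windows of this length, 1.09% held the CArG box, 9.05% TATAAA, 9.07% CATTCC, 15.8% GATAA and 0.387% the MEF2 site. A match describes the letters of the window and shows no binding.

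Some libraries stood apart before any diet was compared. Heart libraries held 17050559 to 47859170 counts in HFCD+FMD, 23707218 to 41712499 in HFCD and 16848195 to 33180337 in control. Mitochondrially encoded genes took 29.5% to 61.99% of the counts in HFCD+FMD, 36.4% to 71.5% in HFCD and 21.8% to 32.6% in control, and the 10 sarcomere genes took 3.31% to 6.39%, 1.97% to 4.89% and 5.71% to 7.10%. Markers of atrial muscle, 13 of 13 tested, summed to 171 to 212 CPM (the count scaled to the effective size of its library) in HFCD+FMD, 153 to 3719 CPM in HFCD and 137 to 271 CPM in control. HFCD replicate 5 held 687 CPM of the atrial light chains Myl4 and Myl7, HFCD replicate 3 held 329 CPM, control replicates 5 and 6 held 43.9 and 23.1 CPM, and the other 10 libraries held 0.688 to 2.67 CPM; the atrial gene Sln was at 0 CPM in HFCD+FMD replicates 1 and 3 and in HFCD replicate 1. HFCD replicate 5 also held 51.0 CPM of 4 adipocyte genes, against at most 14.9 CPM in any other library. The deposited log2 values show that the authors removed 1 term per gene shared within 3 sets of libraries: set A (HFCD replicates 1 to 4 and control replicates 2, 3 and 5), set B (HFCD+FMD replicate 1 and control replicates 4 and 6) and set C (HFCD replicate 5 with HFCD+FMD replicates 2, 3 and 5). The labels do not say what separates them, and they are a factor in the model, so that HFCD+FMD is tied to the other diets only by its replicate 1 and by HFCD replicate 5. Results are therefore given with and without HFCD replicate 5.

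Genes of ventricular muscle were abundant in all 14 libraries. Per kilobase of exons, with all annotated exons merged, the mean over libraries was 5284 CPM for Actc1, 3145 for Myl2, 2111 for Myh6, 1570 for Tnni3, 1185 for Myl3, 731 for Tnnt2, 492 for Mybpc3, 30.4 for Ttn, 16.1 for Myh7 and 4.41 for Tnnt1. Each gene exceeded the next one in this order in at least 11 of 14 libraries. The order depends on the merged lengths, which for Tnnt2 was 7752 bases, against a coding sequence of 906 bases. The narrowest spreads over all libraries were those of Myh6, from 10953 to 18023 CPM, and Ttn, from 2035 to 4419 CPM, and the widest was that of Myh7, from 19.6 to 506 CPM. In bulk tissue, fewer muscle cells and less RNA per muscle cell cannot be told apart.

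**Figure D1:**
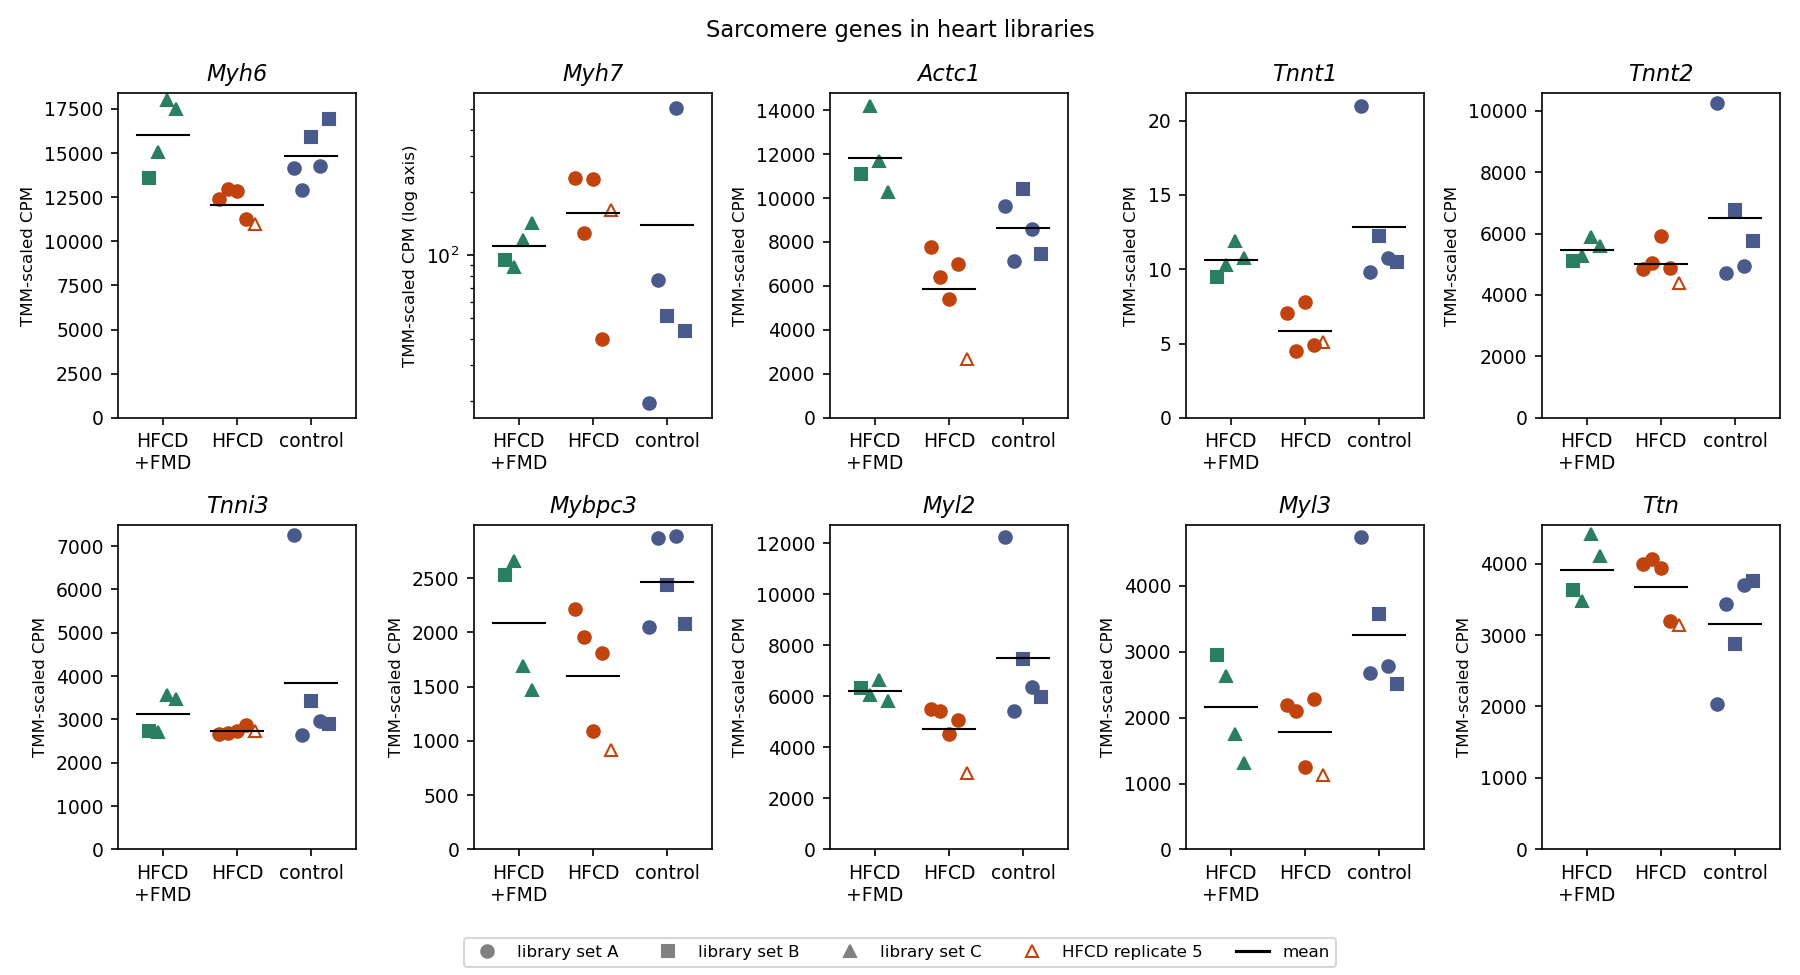
TMM-scaled CPM of the 10 sarcomere genes in each heart library, by diet (1 point per library, horizontal line at the mean, Myh7 on a log axis), with symbols for the library set and an open triangle for HFCD replicate 5. Tnnt1 in HFCD lies at 4.52 to 7.78 CPM, under every point of the other diets, and HFCD replicate 5 is the lowest point for Actc1 at 2665 CPM.

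Under HFCD, set against control, the sarcomere genes were mostly estimated lower, and none passed the test. In edgeR's quasi-likelihood test 0 of the 10 had an adjusted p under 0.05, as did 0 of 13230 genes (0%), while 6 of the 10 had an unadjusted p under 0.05, against 12.8% of all genes. With DESeq2, 1 of the 10 passed and 62 genes in all. The fold change was below 0 for 9 genes and above 0 for Ttn, with a median of -0.60 on the log2 scale for the 10 and 0.01 for all genes. Without HFCD replicate 5 again 9 were below 0, with a median of -0.47, 0 passed in edgeR and 4 had an unadjusted p under 0.05, against 16.1% of all genes. In 2 of the 10, Tnnt1 and Myl3, every HFCD library was below every control library, as in 3.98% of all genes, and in 0 was every HFCD library above every control library, as in 3.21%.

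HFCD+FMD hearts, set against HFCD hearts, gave estimates on the other side of 0. All 10 fold changes were above 0, with a median of 0.54 for the 10 and 0.00 for all genes, yet 0 of the 10 passed in edgeR, where 14 genes passed (0.106%), all of them lower in HFCD+FMD. Of the 10, 5 had an unadjusted p under 0.05, against 11.0% of all genes, and DESeq2 called 1 of the 10 and 279 genes. In 4 of the 10, Myh6, Myl2, Actc1 and Tnnt1, every HFCD+FMD library was above every HFCD library, as in 2.59% of all genes, and in 0 was it below, as in 2.06%. When HFCD replicate 5 was left out, which leaves HFCD+FMD tied to the other diets by its replicate 1 alone, 8 of the 10 were above 0, with a median of 0.61, and 0 had an unadjusted p under 0.05 in edgeR, as did 2.45% of all genes. Without the set factor 9 of the 10 were above 0 and 3 had an unadjusted p under 0.05 both with and without that library, with medians of 0.33 and 0.22 and shares over all genes of 9.45% and 9.59%.

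Between HFCD+FMD and control the estimates fell on both sides of 0. They were above 0 for 6 genes and below 0 for 4, with a median of 0.09 for the 10 and 0.00 for all genes. In edgeR 0 of the 10 passed and 3 genes in all (0.0227%), 1 of the 10 had an unadjusted p under 0.05, against 9.48% of all genes, and DESeq2 called 0 of the 10 and 145 genes. Without HFCD replicate 5 the median was -0.07, 4 were above 0 and 0 had an unadjusted p under 0.05, against 1.91% of all genes. When the set factor was dropped, 7 of the 10 were below 0 both with and without that library, with medians of -0.258 and -0.263. In those fits 0 and 2 of the 10 had an unadjusted p under 0.05 in edgeR, against 22.0% and 23.2% of all genes. In 0 of the 10 did the libraries of HFCD+FMD and control lie apart, as they did with HFCD+FMD lower in 4.26% and higher in 4.76% of all genes. HFCD+FMD and HFCD are each set against the same control libraries, and HFCD serves in both other comparisons, so the 3 sets of values are not independent of each other.

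**Figure D2:**
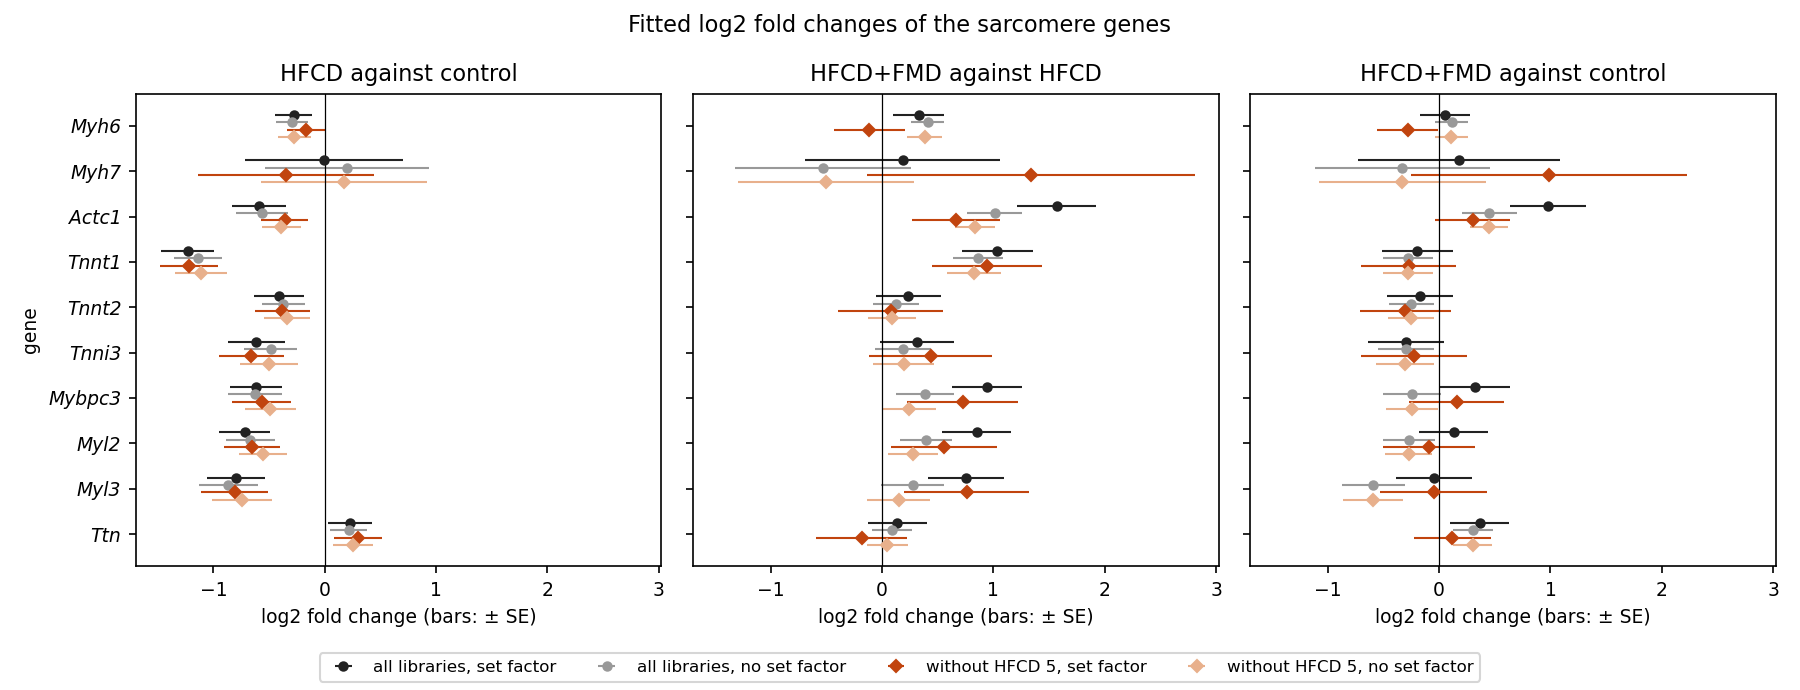
Fitted log2 fold changes (edgeR, bars are ± SE) of the 10 genes in the 3 comparisons, with all libraries or without HFCD replicate 5, and with or without the library sets as a factor. Tnnt1 lies between -1.23 and -1.11 for HFCD against control in all 4 fits, while Actc1 for HFCD+FMD against HFCD lies between 0.66 and 1.57.

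Myh6, the main motor, had 13607, 15056, 18023 and 17511 CPM in HFCD+FMD, against 12406, 12939, 12871, 11256 and 10953 CPM in HFCD and 14169, 12907, 15932, 14262 and 16929 CPM in control. All HFCD libraries were below all HFCD+FMD libraries, and all but 1 of the control libraries were above all HFCD libraries. The log2 fold change was -0.28 for HFCD against control (SE 0.17, edgeR adjusted p = 0.456), 0.33 for HFCD+FMD against HFCD (SE 0.23, adjusted p = 0.690) and 0.05 for HFCD+FMD against control (SE 0.23, adjusted p = 0.954). Without HFCD replicate 5 the estimate for HFCD+FMD against HFCD was -0.11 (SE 0.32, edgeR adjusted p = 0.976), and without the set factor as well it was 0.38 (SE 0.16, adjusted p = 0.466).

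Myh7, the slow and fetal motor, had 94.5, 88.0, 118 and 143 CPM in HFCD+FMD, against 235, 127, 233, 39.8 and 165 CPM in HFCD and 19.6, 76.0, 51.5, 506 and 43.3 CPM in control. The highest and the lowest library were both controls, and the HFCD+FMD libraries lay closest together. Neither HFCD against control (log2 fold change -0.01, SE 0.71, edgeR adjusted p = 0.997) nor HFCD+FMD against HFCD (0.19, SE 0.88, adjusted p = 0.972) nor HFCD+FMD against control (0.18, SE 0.90, adjusted p = 0.963) passed. Without HFCD replicate 5 these estimates were -0.35 (SE 0.79), 1.34 (SE 1.47) and 0.99 (SE 1.24). With such errors a difference of the size of the estimates was not detectable.

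As a share of the main motor, Myh7 amounted to 6.95, 5.84, 6.56 and 8.14 counts per 1000 Myh6 counts in HFCD+FMD, 18.9, 9.84, 18.1, 3.54 and 15.1 in HFCD and 1.39, 5.89, 3.23, 35.5 and 2.56 in control. In 4 of 5 HFCD libraries the share was above all HFCD+FMD libraries and above 4 of 5 controls. In a two-sided exact permutation test the log2 ratio differed by 1.25 for HFCD against control (p = 0.214, adjusted over the 3 comparisons 0.321), by -0.72 for HFCD+FMD against HFCD (p = 0.206, adjusted 0.321) and by 0.53 for HFCD+FMD against control (p = 0.603, adjusted 0.603). Within set A, HFCD against control gave 0.66 (exact permutation p = 0.629). Within set C, HFCD+FMD against the lone HFCD library gave -1.15 (exact p = 0.250), and within set B, HFCD+FMD against control gave 1.27 (exact p = 0.333), which are the smallest p that 4 and 3 arrangements allow. Without control replicate 5 the ratio for HFCD against control differed by 1.97 (exact permutation, adjusted p = 0.0857).

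**Figure D3:**
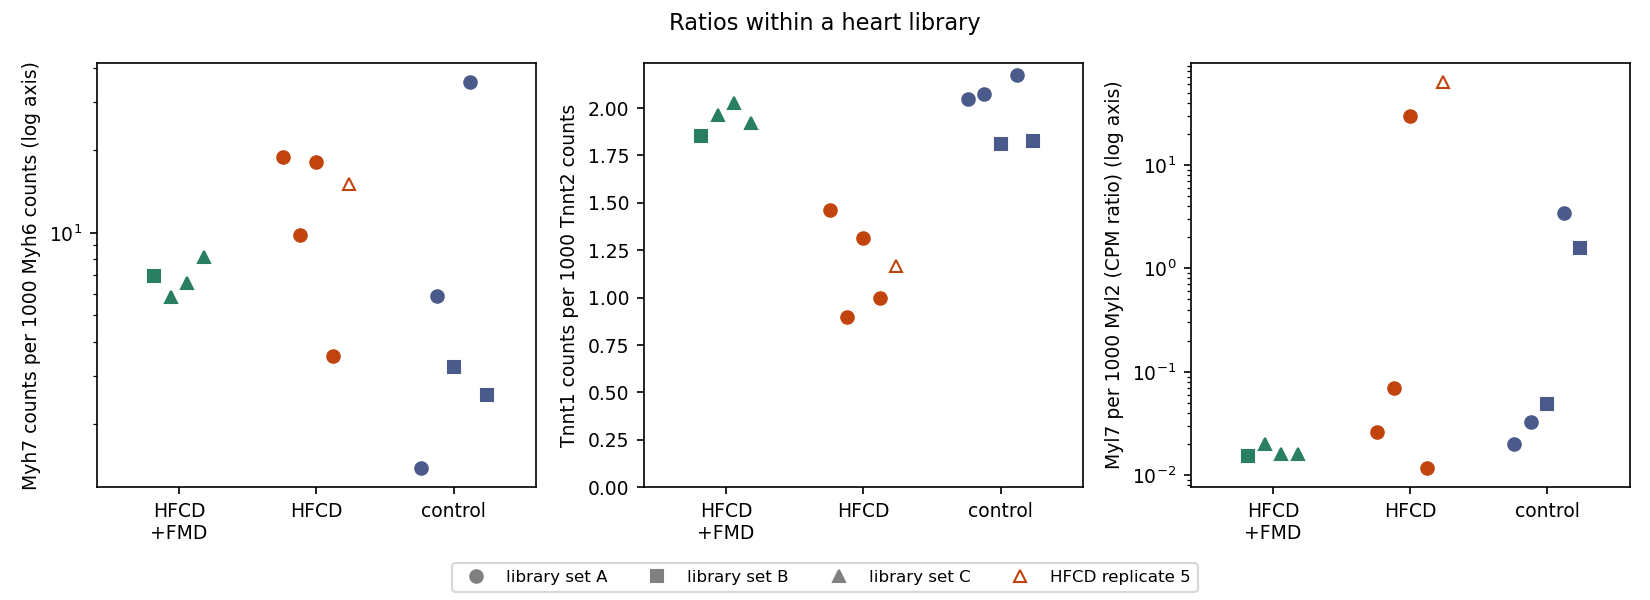
Ratios within each heart library by diet: Myh7 counts per 1000 Myh6 counts (log axis), Tnnt1 counts per 1000 Tnnt2 counts, and the atrial light chain Myl7 per 1000 of the ventricular light chain Myl2 in CPM (log axis); 1 point per library, symbols for the library set, open triangle for HFCD replicate 5. Tnnt1 per Tnnt2 lies at 0.899 to 1.46 in HFCD, under all other points, while Myh7 per Myh6 overlaps between diets.

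Mybpc3, which tunes the motors, had 2532, 2657, 1694 and 1465 CPM in HFCD+FMD, against 2213, 1955, 1088, 1808 and 913 CPM in HFCD and 2048, 2872, 2437, 2889 and 2078 CPM in control. The lowest libraries within the 2 high-fat diets, HFCD+FMD replicates 3 and 5 and HFCD replicates 3 and 5, were the 4 with 59.8% to 71.5% of counts from mitochondrially encoded genes. Fold changes on the log2 scale were -0.62 for HFCD against control (SE 0.23, edgeR adjusted p = 0.370), 0.94 for HFCD+FMD against HFCD (SE 0.32, adjusted p = 0.246) and 0.32 for HFCD+FMD against control (SE 0.31, adjusted p = 0.770). The part of the mitochondrial share in these values was not tested. Without HFCD replicate 5 the second estimate was 0.72 (SE 0.50, edgeR adjusted p = 0.960).

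The ventricular regulatory light chain Myl2 had 6336, 6060, 6634 and 5834 CPM in HFCD+FMD, against 5521, 5420, 4536, 5078 and 3000 CPM in HFCD and 12244, 5409, 7471, 6350 and 5956 CPM in control. HFCD was below HFCD+FMD in every library and overlapped control only through control replicate 3. Its log2 fold change was -0.72 for HFCD against control (SE 0.23, edgeR adjusted p = 0.367), 0.85 for HFCD+FMD against HFCD (SE 0.31, adjusted p = 0.300) and 0.13 for HFCD+FMD against control (SE 0.31, adjusted p = 0.905). HFCD replicate 5, the lowest library, had 62.9 Myl7 per 1000 Myl2 and HFCD replicate 3 had 29.8, while the HFCD+FMD libraries had 0.0154 to 0.0202 and the controls 0.0201 to 3.40; the part of atrial muscle in these levels was not tested. Control replicate 2, at 12244 CPM, was the highest library, and without it HFCD against control gave -0.38 (edgeR adjusted p = 0.667). Without HFCD replicate 5 the first 2 estimates were -0.65 (SE 0.25, edgeR adjusted p = 0.289) and 0.56 (SE 0.48, adjusted p = 0.960).

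The ventricular essential light chain Myl3 had 2956, 2638, 1759 and 1309 CPM in HFCD+FMD, against 2196, 2097, 1246, 2279 and 1129 CPM in HFCD and 4742, 2682, 3576, 2785 and 2508 CPM in control. Every HFCD library was below every control library, and within both high-fat diets the 2 libraries with the largest mitochondrial share were again the lowest. The log2 fold change was -0.80 for HFCD against control (SE 0.26, edgeR adjusted p = 0.367), -0.81 without HFCD replicate 5 (SE 0.30, adjusted p = 0.289) -0.55 without control replicate 2 (adjusted p = 0.667) and -0.79 within set A as a difference of means. For HFCD+FMD against HFCD it was 0.76 with and 0.76 without HFCD replicate 5 (SE 0.34 and 0.56, edgeR adjusted p = 0.441 and 0.960). When the set factor was dropped these became 0.28 and 0.15 (SE 0.28 and 0.28, edgeR adjusted p = 0.812 and 0.928). For HFCD+FMD against control it was -0.04 with the set factor and -0.59 without it (SE 0.34 and 0.28, edgeR adjusted p = 0.978 and 0.234).

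Ttn, the spring of the sarcomere, had the only estimate above 0 for HFCD against control. It had 3630, 3477, 4419 and 4104 CPM in HFCD+FMD, against 3991, 4061, 3933, 3200 and 3145 CPM in HFCD and 2035, 3438, 2880, 3693 and 3754 CPM in control, and the diets overlapped. Its log2 fold change was 0.22 for HFCD against control (SE 0.20, edgeR adjusted p = 0.585), 0.14 for HFCD+FMD against HFCD (SE 0.26, adjusted p = 0.927) and 0.36 for HFCD+FMD against control (SE 0.27, adjusted p = 0.700). Ttn has by far the longest of these transcripts, 116825 exon bases, and the lowest Ttn library, control replicate 2, was also the one in which long transcripts were lowest. There the median of the 20% longest genes lay 1.10 below that of the 20% shortest on the log2 scale, relative to the mean of all libraries. With offsets for GC content and length the Ttn estimate for HFCD against control was -0.29 (edgeR adjusted p = 0.442). The first 2 estimates were, without HFCD replicate 5, 0.30 (SE 0.22) and -0.18 (SE 0.41).

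**Figure D4:**
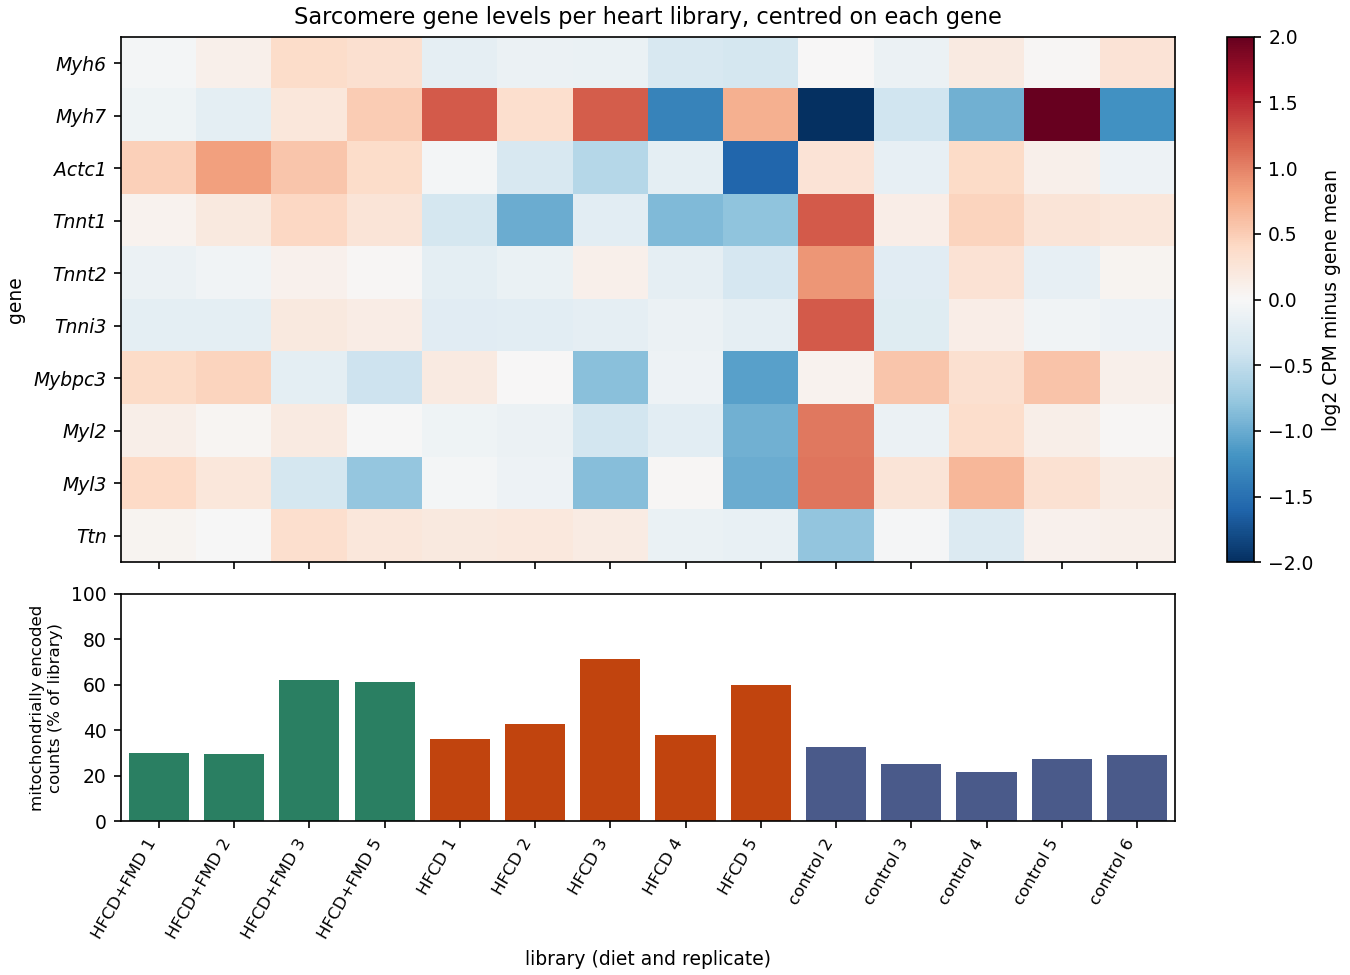
Top, log2 CPM of each gene minus its mean over the 14 heart libraries (colour, from -2 to 2; rows are genes, columns are libraries ordered by diet). Bottom, percent of counts from mitochondrially encoded genes in the same libraries; control replicate 2 stands out as high for Tnnt1, Tnnt2, Tnni3, Myl2 and Myl3 and low for Ttn, and HFCD replicate 5 as low for Actc1, Mybpc3, Myl2 and Myl3.

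Cardiac actin had the largest thin filament estimate for HFCD+FMD against HFCD with all libraries in the model. With the set factor but without HFCD replicate 5, that of Tnnt1 was larger (0.94 against 0.66). When the set factor was dropped as well, Actc1 stood at 0.84 and Tnnt1 at 0.83. Actc1 had 11075, 14180, 11692 and 10278 CPM in HFCD+FMD, against 7788, 6402, 5383, 6996 and 2665 CPM in HFCD and 9646, 7132, 10401, 8602 and 7465 CPM in control. All HFCD+FMD libraries were above all HFCD libraries, and 1 control library reached into their range. The log2 fold change was 1.57 for HFCD+FMD against HFCD (SE 0.36, edgeR adjusted p = 0.0881), -0.59 for HFCD against control (SE 0.24, adjusted p = 0.377) and 0.98 for HFCD+FMD against control (SE 0.34, adjusted p = 0.368). The first passed with DESeq2 (1.57, adjusted p = 0.000194).

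HFCD replicate 5 weighed on the actin estimates, more so with the set factor than without it. With the set factor but without this library HFCD+FMD against HFCD gave 0.66 (SE 0.39, edgeR adjusted p = 0.960), HFCD against control -0.36 (SE 0.21, adjusted p = 0.378) and HFCD+FMD against control 0.30 (SE 0.34, adjusted p = 0.99999). Without the set factor HFCD+FMD against HFCD gave 1.01 with all libraries (SE 0.25, edgeR adjusted p = 0.216) and 0.84 without HFCD replicate 5 (SE 0.18, adjusted p = 0.0615). Within set C alone, where HFCD replicate 5 is the only HFCD library, the difference was 2.16, and without HFCD+FMD replicate 1 the fit, which then rests on that set, called Actc1 at 2.18 (edgeR adjusted p = 0.00871) against HFCD and 1.83 (adjusted p = 0.0441) against control. The related skeletal actin Acta1 had 10.6 CPM in HFCD replicate 5, the lowest of all 14 libraries, and its estimate of 2.24 for HFCD+FMD against HFCD did not pass (SE 0.60, edgeR adjusted p = 0.143).

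Tnnt1, the slow skeletal troponin T and the least abundant of the 10, had 9.45, 10.3, 11.9 and 10.8 CPM in HFCD+FMD, against 7.07, 4.52, 7.78, 4.88 and 5.12 CPM in HFCD and 21.0, 9.81, 12.2, 10.8 and 10.5 CPM in control. These values rest on 98 to 597 counts a library. Every HFCD library was below every library of the other diets, while HFCD+FMD and control overlapped. Tnnt1 had a log2 fold change of -1.23 for HFCD against control (SE 0.24, edgeR adjusted p = 0.209), 1.04 for HFCD+FMD against HFCD (SE 0.32, adjusted p = 0.197) and -0.19 for HFCD+FMD against control (SE 0.32, adjusted p = 0.862).

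Leaving out HFCD replicate 5 moved the Tnnt1 estimates little. They were -1.22 (SE 0.26, edgeR adjusted p = 0.289) and 0.94 (SE 0.50, adjusted p = 0.960) for the comparisons of HFCD with control and of HFCD+FMD with HFCD, and the difference of means within set A was -1.14. With DESeq2 the fall under HFCD against control passed (-1.23, adjusted p = 0.00142). Across the 14 leave-one-out fits the estimate for HFCD against control lay between -1.39 and -0.90, with edgeR adjusted p between 0.185 and 0.543.

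Tnnt2, the cardiac troponin T, had 5100, 5259, 5891 and 5608 CPM in HFCD+FMD, against 4837, 5029, 5911, 4883 and 4394 CPM in HFCD and 10265, 4727, 6750, 4955 and 5752 CPM in control, with all diets overlapping. Tnni3, the inhibitory subunit that binds it, had 2723, 2715, 3571 and 3463 CPM in HFCD+FMD, against 2668, 2684, 2742, 2860 and 2741 CPM in HFCD and 7252, 2639, 3420, 2969 and 2904 CPM in control. In both genes control replicate 2 was far above the others. For HFCD against control the log2 fold change was -0.41 for Tnnt2 (SE 0.22, edgeR adjusted p = 0.432) and -0.61 for Tnni3 (SE 0.26, adjusted p = 0.382), and without control replicate 2 it was -0.06 and -0.12. For HFCD+FMD against HFCD it was 0.24 for Tnnt2 (SE 0.29, edgeR adjusted p = 0.864) and 0.32 for Tnni3 (SE 0.33, adjusted p = 0.827), and for HFCD+FMD against control -0.17 and -0.30 (adjusted p = 0.868 and 0.807). Both genes were refitted without HFCD replicate 5, and the estimates for HFCD against control were -0.38 (SE 0.25) and -0.66 (SE 0.29), and those for HFCD+FMD against HFCD 0.08 (SE 0.47) and 0.44 (SE 0.55).

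Ratios within a library do not depend on how libraries are scaled. Tnnt1 amounted to 1.85, 1.96, 2.02 and 1.92 counts per 1000 Tnnt2 counts in HFCD+FMD, 1.46, 0.899, 1.32, 0.998 and 1.17 in HFCD, and 2.05, 2.08, 1.81, 2.17 and 1.83 in control. The means were 1.94 ± 0.0717 (SD, n = 4) in HFCD+FMD, 1.17 ± 0.229 (SD, n = 5) in HFCD and 1.99 ± 0.160 (SD, n = 5) in control. All HFCD libraries lay below all others, in set A against control and in set C against HFCD+FMD. Control replicate 2, the highest library for each of these genes alone, lay among the other controls in this ratio.

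This ratio was picked after its values were seen, so all 45 pairs of the 10 genes were tested in the same way, 135 two-sided exact permutation tests in all. None had an adjusted p under 0.05: the smallest p was 0.00794 for HFCD against control and 0.0159 for both others, the smallest these group sizes allow, and the smallest adjusted p was 0.102. The diets lay apart in 5 of 45 pairs for HFCD against control, 4 of them with Tnnt1, and in 11 of 45 for HFCD+FMD against HFCD. For HFCD+FMD against control they lay apart in 4 of 45. Over all pairs of the 13077 genes with a count in every library, the diets lay apart in 6.4%, 4.21% and 8.56% in the same order. The counts for the comparisons with HFCD stayed at 5 and 11 without HFCD replicate 5. Leaving out a library cannot lower such a count, so this is no test of that library's weight. Actc1 lay apart relative to Tnnt2, Tnni3, Myl2 and Ttn for HFCD+FMD against HFCD, by 0.96, 0.92, 0.66 and 0.999 on the log2 scale, and relative to Tnnt1, Tnnt2, Myl2 and Myl3 for HFCD+FMD against control, by 0.67, 0.64, 0.66 and 1.07. Myh6 lay apart relative to Ttn for HFCD against control, by -0.53, and for HFCD+FMD against HFCD, by 0.31. The pairs share genes, so these counts are not independent of each other.

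The tightest pair over the 14 libraries was Tnnt2 and Tnni3, whose log2 ratio had an SD of 0.16, and the loosest was Myh7 and Myl3, with an SD of 1.62. Among 12252 genes with a mean of at least 1 CPM, those closest to Myl2 in centred log2 CPM were Tnnc1, the cardiac troponin C, at a root mean square difference of 0.15, Tmod4 at 0.16 and Commd1 at 0.17, against a median of 0.52 over all genes. Closest to Tnnt1 were Mlf1 at 0.26, Gm17066 at 0.30 and Slirp at 0.32, against a median of 0.66. Closest to Myh7 were Masp1 at 0.60, Cilp at 0.66 and Dio2, an enzyme that activates thyroid hormone, at 0.67, against a median of 1.20. These are distances over libraries that share diets, sets and composition, given as a description.

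Of 40 other sarcomere genes, 0 passed in edgeR in any of the 3 comparisons, with 5, 7 and 7 at an unadjusted p under 0.05 for HFCD against control, HFCD+FMD against HFCD and HFCD+FMD against control, against 12.8%, 11.0% and 9.48% of all genes. DESeq2 called 0, 2 and 1 of them, Fhl2 and Myot as higher in HFCD+FMD than in HFCD and Fhl2 as higher in HFCD+FMD than in control. The medians of the 40 genes on the log2 scale were -0.13, 0.18 and 0.08, smaller in size than the medians of the 10 genes in the first 2. Without HFCD replicate 5 the median for HFCD+FMD against HFCD was 0.015 (19 lower, 21 higher). Without the set factor as well it was 0.0002 (20 lower, 20 higher). The smallest p for HFCD against control belonged to Csrp3, a Z-disc protein, at -0.63 (SE 0.20, edgeR adjusted p = 0.367), and to Tcap, which caps titin at the Z-disc, at -0.88 (SE 0.28, adjusted p = 0.367). For HFCD+FMD against HFCD they belonged to Fhl2, a protein that binds titin, at 1.39 (SE 0.27, edgeR adjusted p = 0.0584), which stood at 307 CPM in HFCD replicate 5 and 783 to 936 CPM in the other HFCD libraries, and to Pdlim3 at -0.95 (SE 0.28, adjusted p = 0.170).

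Muscle cell genes outside the sarcomere, 10 of 10 tested, had 0 calls in edgeR and 0 in DESeq2 in each comparison with all libraries and the set factor. In each, 1 had an unadjusted p under 0.05, against 12.8%, 11.0% and 9.48% of all genes in the same order. The medians were -0.12, 0.26 and 0.14. Without HFCD replicate 5 the second median was -0.003 (5 lower, 5 higher), or 0.25 without the set factor as well (1 lower, 9 higher). In that last fit 1 of the 10 passed in edgeR as higher in HFCD+FMD than in control, as did 146 of all 13123 genes. Ckm, the muscle creatine kinase, had the smallest p for HFCD against control, at -0.62 (SE 0.23, edgeR adjusted p = 0.370). Casq2, which stores calcium, had it for HFCD+FMD against HFCD, at 0.73 (SE 0.25, edgeR adjusted p = 0.264), and against control, at 0.77 (SE 0.25, adjusted p = 0.313). Of 19 muscle gene regulators tested 0 passed in any comparison, with 2, 3 and 2 at an unadjusted p under 0.05, shares over all genes as above. DESeq2 called 1, 1 and 0 of them (Mef2d in the first, Tbx5 in the second). Among 13 atrial genes 1 passed, Bmp10, which fell by 9.25 on the log2 scale in HFCD+FMD against HFCD (SE 0.98, edgeR adjusted p = 0.00295), and which had 850 CPM in HFCD replicate 5 and 0.0909 to 2.61 CPM in all other libraries. All 13 were estimated lower in that comparison, 11 with an unadjusted p under 0.05, against 11.0% of all genes. DESeq2 called Bmp10, Gja5, Stard10 and Cacna2d2 as lower, and Cacna2d2 also against control. Leaving out HFCD replicate 5 left 11 atrial genes for the test. Of these 9 were estimated lower and 0 had an unadjusted p under 0.05 in edgeR, against 2.45% of all genes. When the set factor was dropped as well, 8 of the 11 were lower, with a median of -0.72. Of the 11, 5 then had an unadjusted p under 0.05 in edgeR, against 9.59% of all genes.

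Of 4 adipocyte genes 2 fell in HFCD+FMD against HFCD, where 0.106% of all genes passed, Cfd by 6.24 and Cidec by 6.92 (edgeR adjusted p = 0.0392 each). Against control, where 0.0227% of all genes passed, Cfd fell by 9.13 and Cidec fell by 9.58 (edgeR adjusted p = 0.0155 and 0.0157). DESeq2 called Cidec in the first of these comparisons, and Cidec and Plin1 in the second. HFCD replicate 5 was the highest library, at 27.9 CPM of Cfd and 8.15 CPM of Cidec. Cidec was at 0 CPM in HFCD+FMD replicates 1 and 5. For HFCD+FMD against control the log2 median of the 4 genes was -8.88 with the set factor. Without the set factor it was -3.65, and 0 of the 4 passed in edgeR. Without HFCD replicate 5 it was -5.67 with the set factor (0 passed) and -3.67 without it (2 passed). In the latter fit 146 of all 13123 genes passed as higher and 38 as lower. Cfd stood at 0.122 to 0.374 CPM in HFCD+FMD, 0.108 to 0.449 CPM in the other HFCD libraries and 1.02 to 5.37 CPM in control, and without HFCD replicate 5 its estimate for HFCD+FMD against HFCD was -0.02 (SE 1.15, edgeR adjusted p = 0.9996).

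Adipose tissue served as a tissue without heart muscle. Of the 10 genes, 9 had a row in the adipose table, and Myh7 had none. Leaving out Tnnt1, which adipose libraries held at 0.290 to 1.29 CPM, the other 8 summed to 28940 to 62400 CPM in heart and to 1.78 to 135 CPM in adipose tissue, and 4 adipose libraries, those with 52.2 CPM or more, stood above the remaining 9. In the 3 highest, Myl2 made up 13.0%, 11.4% and 8.55% of the sum in HFCD+FMD replicate 6, HFCD replicate 1 and control replicate 1, and 10.4% to 19.6% in heart, while Ttn made up 8.85%, 9.36% and 21.9%, and 3.26% to 10.9% in heart. All 3 diets had such a library, and no comparison of diets was made there.

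**Figure D5:**
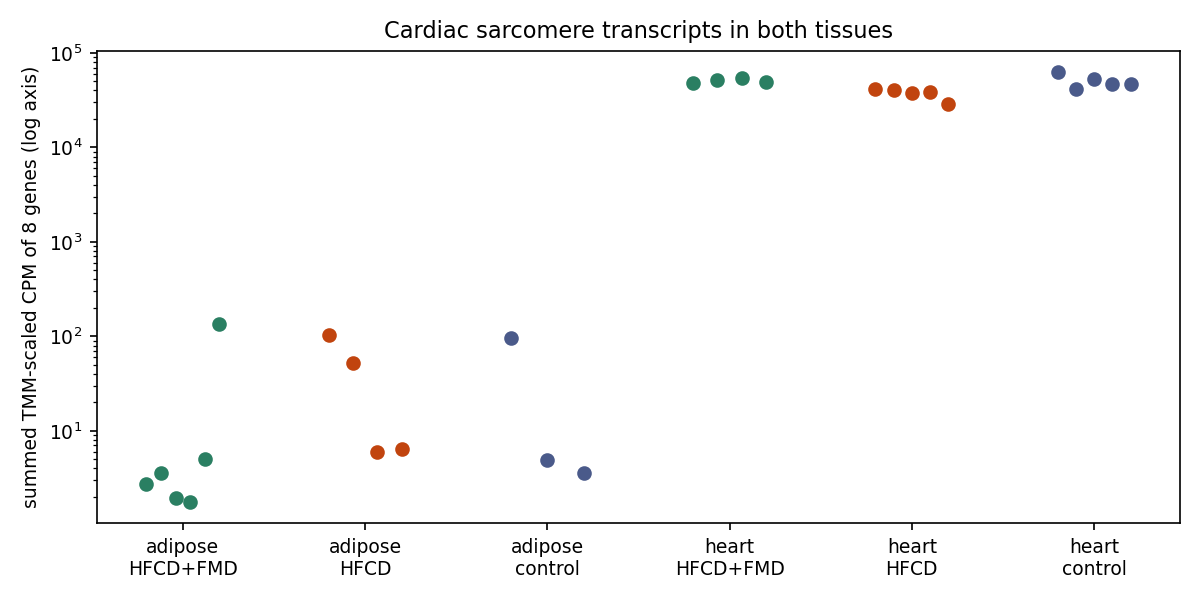
Summed TMM-scaled CPM of 8 cardiac sarcomere genes (log axis) in each adipose and heart library, by tissue and diet, 1 point per library. Adipose libraries lie between 1.78 and 135 CPM and heart libraries between 28940 and 62400 CPM, with 4 adipose libraries at 52.2 CPM or more.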

How the data were processed

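RNA was measured by sequencing of ribosome-depleted total RNA, per the labels' protocols. The submitters' processing notes name STAR 2.5.3, mm10, R 3.5.3, edgeR and limma; the counting program is not given in the sources used here. Heart and adipose tables deposited by the authors hold unscaled integer counts of reads, and further tables hold log2 CPM with 0.5 added to each count, from which in heart 1 term per gene and library set had been removed (recovered to within 9.77e-09). Columns that matched no label numbered 0, and 7 of the 34 labelled libraries were not analysed here.

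Counts were fitted with edgeR 4.0.16 in R 4.3.3 (TMM scaling, filterByExpr on diet, 13230 genes, diet plus library set, robust quasi-likelihood F-test, Benjamini-Hochberg over all genes, threshold 0.05). The SE is the fold change over the root of F. Diets were compared in ratios with two-sided exact permutation tests (scipy 1.17.1). DESeq2 1.42.0 and limma 3.58.1 were alternatives, with RLE scaling, other filters, age, no set factor and each library left out. Offsets for GC content and length, and leaving out HFCD replicates 3 and 5, were added after seeing the data. Gene names, coordinates and lengths come from GENCODE M21 (GRCm38) and promoters from RefSeq (GRCm38.p6).

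The 10 genes and all lists were chosen with earlier results of these data known. All 10 are named in each comparison; from each other list the text names members that passed, or up to 2 with the smallest p, Acta1 among them, and the 3 genes closest to Myh7, Tnnt1 and Myl2. CPM values carry no prior count; centred log2 CPM carry a prior count of 2. Replicate numbers follow accession order and only name libraries.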

Additional observations from a re-analysis of the deposited data

Results flagged for a closer look

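Among 33 groups of 4 or 5 libraries (10 genes and the heavy chain ratio in 3 diets), 4 held a library far from the rest of its diet by Dixon's criterion, which chance alone meets in about 1 in 20 groups. Control replicate 5 had 506 CPM of Myh7, the next control 76.0 CPM, and 35.5 Myh7 counts per 1000 Myh6 counts. Control replicate 2 had 21.0 CPM of Tnnt1 and 7252 CPM of Tnni3, the next controls 12.2 and 3420 CPM.

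In adipose tissue, which the comparisons above do not use, transcripts of the 8 cardiac sarcomere genes summed to 135 CPM in HFCD+FMD replicate 6 and 104 CPM in HFCD replicate 1, above the highest control library, which had 95.2 CPM. HFCD replicate 2 had 52.2 CPM and the other 9 adipose libraries 1.78 to 6.40 CPM. Within this sum Myh6 took 32.6% in HFCD+FMD replicate 6, 34.9% in HFCD replicate 1 and 28.3% in control replicate 1, and 22.7% to 37.8% in the heart libraries. The source of these transcripts was not tested.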

How the results depend on the processing

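No paired analysis was possible because the replicate numbers follow accession order and tie no libraries to each other. The number of genes called for HFCD against control, 0, was 62 with DESeq2, 36 with limma on the deposited log2 values, 3 with GC and length offsets and 8 with these offsets and no set factor. Between HFCD+FMD and HFCD, where it was 14, it was 279, 1290, 101 and 0 in the same order, 2 with age, 0 with 1 CPM in 5 libraries, 0 without the set factor, 77 without it and HFCD replicate 5, 203 without it and HFCD replicates 3 and 5, and 0 to 368 with 1 library left out (368 without HFCD+FMD replicate 1). Between HFCD+FMD and control, where it was 3, it was 145, 1138, 11 and 5 in that first order, 1 with 1 CPM in 5 libraries, 0, 184 and 774 in the settings without the set factor, and 0 to 217 with 1 library left out (217 without HFCD+FMD replicate 1). Of the 10 genes, DESeq2 called 1 for HFCD against control and 1 for HFCD+FMD against HFCD, and limma on the deposited values, which counts no degrees of freedom for the removed sets, 1, 4 and 1. With 1 library left out 0 to 1 were called in each comparison with HFCD+FMD, the 1 being Actc1 without HFCD+FMD replicate 1. Signs turned as follows, none with an adjusted p under 0.05. For HFCD against control Myh7 was 0.68 with limma, 0.043 with the offsets, 0.29 with the offsets and no set factor, 0.11 with age, 0.20 without the set factor, 0.17 without it and HFCD replicate 5, and -0.36 to 1.68 with 1 library left out. Ttn was -0.29 and -0.23 with the offsets, with and without the set factor, and Tnni3 0.0039 without it. Between HFCD+FMD and HFCD, Myh7 was -0.13 with limma, -0.38 with the offsets and no set factor, -0.093 with age, -0.53, -0.50 and -0.28 in the settings without the set factor (all libraries, without HFCD 5, without HFCD 3 and 5), and -0.59 to 1.34 with 1 library left out; Myl3 was -0.020 in the last of these settings. Leaving out 1 library gave Myh6 -0.11 to 0.62 and Ttn -0.18 to 0.35. Between HFCD+FMD and control the 3 settings without the set factor gave Myh7 -0.33, -0.33 and -0.33, Mybpc3 -0.24, -0.24 and -0.24, and Myl2 -0.27, -0.27 and -0.27. The offsets gave Tnnt1 0.077, Tnni3 0.063, Myl3 0.14 and Ttn -0.10, and without the set factor Myh7 -0.090, Tnnt1 0.047, Tnni3 0.14, Mybpc3 -0.0072, Myl2 -0.13 and Ttn -0.16. Age gave Myh6 -0.049 and Myl3 0.050. Leaving out 1 library gave Myh6 -0.28 to 0.47, Myh7 -0.85 to 1.09, Myl2 -0.092 to 0.40, Myl3 -0.17 to 0.091 and Tnnt2 -0.30 to 0.013. The cause of these turns was not tested. Depth limits Tnnt1 most, at 98 counts in its shallowest library. In all, 822 of 934 alternative values stayed the same, which for a fold change or ratio means its sign and its side of the threshold and for a count of genes a number close to the main one.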

Other observations

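Genes of the cells that surround heart muscle were measured in the same libraries, and none of the 8 fibroblast, 6 endothelial, 6 macrophage or 7 smooth muscle and pericyte genes passed in edgeR in any comparison. At an unadjusted p under 0.05 there were 0, 1, 0 and 1 of them for HFCD against control, 1, 1, 2 and 4 for HFCD+FMD against HFCD and 2, 3, 3 and 2 for HFCD+FMD against control, and over all genes the shares were 12.8%, 11.0% and 9.48% in that order of comparisons. DESeq2 called Kdr, an endothelial receptor, as higher in HFCD+FMD than in either other diet, and the macrophage receptor gene Csf1r as lower in HFCD+FMD than in control. All 6 macrophage genes were estimated lower in HFCD+FMD than in HFCD, with a median of -0.58 on the log2 scale, and their sum ranged from 148 to 242 CPM in HFCD+FMD, 136 to 357 CPM in HFCD and 135 to 208 CPM in control. HFCD replicate 5 was the highest HFCD library for each of the 6, and without it 4 of them were estimated lower, with a median of -0.18, or 1 without the set factor as well, with a median of 0.28. The thyroid hormone receptor gene Thra, among the regulators of the heavy chains, had an estimate of -0.34 for HFCD+FMD against control (SE 0.15, edgeR adjusted p = 0.488).

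Of 7 other isoforms tested, such as skeletal actin and Myh7b, a slow heavy chain related to Myh7, 0 passed in edgeR in any comparison. At an unadjusted p under 0.05 there were 1, 3 and 2 of the 7, against 12.8%, 11.0% and 9.48% of all genes. DESeq2 called Myh7b and Acta1 as higher in HFCD+FMD than in HFCD. Myh7b had an edgeR estimate of 1.62 there (SE 0.57, adjusted p = 0.271). It stood at 3.33 CPM in HFCD replicate 5, 25.3 to 44.1 CPM in the other HFCD libraries and 20.4 to 28.7 CPM in HFCD+FMD. Acta1 stood at 10.6 CPM in HFCD replicate 5, 81.7 to 108 CPM in the other HFCD libraries and 36.8 to 109 CPM in HFCD+FMD. Of 6 genes known to answer to mechanical load, 0 passed in edgeR, with 0, 4 and 3 at an unadjusted p under 0.05, shares over all genes as above. DESeq2 called Acta1 as higher and Ccn2 as lower in HFCD+FMD than in HFCD, and Ccn2 also as lower in HFCD+FMD than in control. Ccn2 stood at 31.2 to 106 CPM in HFCD+FMD, at 522 CPM in HFCD replicate 5 and 34.97 to 99.4 CPM in the other HFCD libraries, and at 49.6 to 87.1 CPM in control, so that HFCD+FMD and control overlapped.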
